A study of Mus musculus with 8 samples.

Results

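The response of CTL-EN cells with the Ser585Gly receptor chain to 12 h of GM-CSF was read on 2 of the series' 8 arrays, which compared RNA from 12 h directly with RNA from 0 h. CTL-EN is a mouse T cell line, and both populations of the study carried a human GM-CSF receptor beta common chain, either wild type or with a serine of its tail changed to glycine (Ser585Gly). All cells were first deprived of factor for 12 h in RPMI medium with 0.5% CS, which is the 0 h state, and were then stimulated for 12 h with human GM-CSF (50 ng/mL). On array 1 the 12 h RNA was in Cy5 and on array 2 it was in Cy3, and the ratio of array 2 was turned so that a positive log2 value means more signal at 12 h on both. The other arrays, also in pairs of opposite dye, compared 12 h with 0 h in wild type and Ser585Gly with wild type at 0 h and at 12 h. Both arrays were chosen by their labels, and all 21776 probes placed on a spot entered the tests. Of these, 16642 probes had 1 gene symbol, and the brightest probe stood for each of 15095 genes. The labels name no separate cultures, so each pair was counted as 1 measurement. In the reported fit, SEs and p-values rest on how far the averaged pairs disagree with each other, pooled with the spread of other probes. They cover no spread between cultures, and a difference between the 2 arrays of a pair does not enter them. The sources used here do not say whether each population was 1 clone. No array held cells kept for the same 12 h without GM-CSF, so the cytokine and the time spent in culture cannot be told apart. The introduced human chain has no probe here.

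GM-CSF binds a receptor made of a specific alpha chain and the beta common chain, which is shared with the receptors for interleukin-3 and interleukin-5. The beta chain carries the kinase JAK2, which phosphorylates receptor tyrosines and activates STAT5, and the receptor also feeds the ERK and phosphoinositide 3-kinase (PI3K) pathways. The serine lost in Ser585Gly, once phosphorylated, is bound by 14-3-3 adaptor proteins, and a glycine in its place cannot be phosphorylated. Factor-dependent cells that lose their cytokine leave the cell cycle, reduce growth and eventually die, and returning the cytokine restarts growth.

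Between 0 h and 12 h, 1355 of 21776 probes changed with the Ser585Gly chain (6.22% of all tested; limma, Benjamini-Hochberg adjusted p under 0.05), 794 upward (3.65%) and 561 downward (2.58%). A change of at least 2-fold was reached by 170 of the higher and 73 of the lower probes. The smallest change that passed was 0.53 on the log2 scale, and the median among those that passed was 0.74. By gene, 1050 of 15095 passed (6.96%), of which 625 rose (4.14%) and 425 fell (2.82%). The counts by list below are to be read beside these shares. Several lists with few calls lie near them, such as proteasome subunits (5.56% higher), effectors of killing (5.26% higher) and adhesion receptors (3.23% higher). Both arrays had the sign of the estimate for 1353 of the 1355 probes. As these arrays enter the estimate and the probes were picked by it, that choice in part sets this count. Over all probes the 2 arrays correlated at 0.509. The estimate used all 8 arrays, because the 6 others measure the same contrast by a route that shares no array with the direct pair (the wild-type time pair, plus the mutation pair at 12 h, less the mutation pair at 0 h). The direct pair and that route correlated at 0.543 across probes, which are not independent replicates. With the direct pair alone as the estimate, 1147 probes passed. That fit still took its spread and dye term from all 8 arrays, each counted singly. The route had the same sign for 1137 of these probes (99.1%), against 64.8% of all probes. Probes that pass have large changes, which in part sets that gap. The labels do not say whether the arrays of the route held separate RNA. Counts shifted when single arrays were left out, also outside the direct pair. With an array left out, its pair keeps 1 dye orientation, and these refits have no dye term. An effect of the array and one of its dye thus cannot be told apart in such counts, here and in the lists below. Replicate 1 of the mutation pair at 0 h stood apart, with an SD of log2 ratios of 0.541 against 0.296 to 0.365 on the others, and 3135 probes passed without it. Only 250 passed without replicate 2 of that pair, 742 without replicate 2 of the mutation pair at 12 h, 674 without replicate 1 of the wild-type time pair and 336 without its replicate 2. Leaving out array 1 of the direct pair gave 1046 probes and leaving out array 2 gave 1864. Of the 30 largest changes named below, 29 passed in each of 18 alternative settings, and the exception, Ccng2, did not pass without replicate 2 of the wild-type time pair. These 30 were picked as the largest with 1 sign on both arrays and the route, so that choice in part sets their count. Of all 127 named genes that passed, 60 did so in every setting, and 62 did not without replicate 2 of the mutation pair at 0 h.

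**Figure D1:**
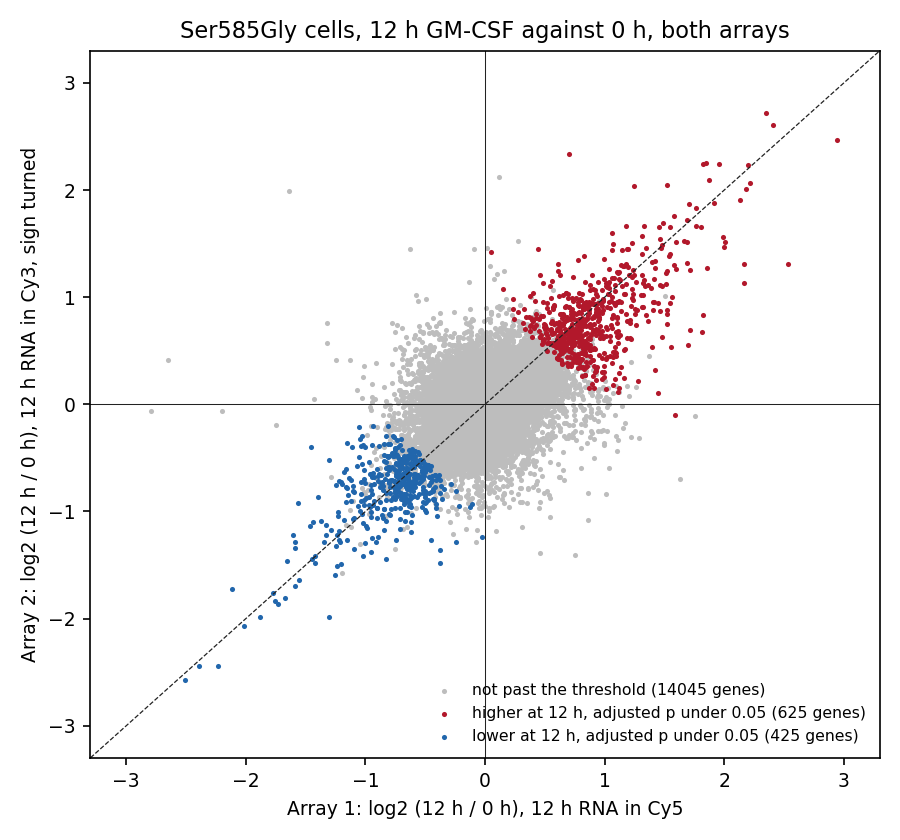
Each point is a gene, with the log2 ratio of 12 h to 0 h on array 1 (x axis) and, sign turned, on array 2 (y axis); the dashed line marks equal values. The 625 genes that rose (red) and the 425 that fell (blue) spread along that line, and the 14045 that did not pass are grey.

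As a check of the cell type, 17 of 19 T cell markers were measured, and 16 of them were above the level of empty wells in all readings of Ser585Gly RNA, 4 at each time. The remaining marker was Cd4, above that level in 1 of 4 readings at 0 h and 1 of 4 at 12 h, whereas Cd8a, a chain of the cytotoxic T cell co-receptor, was above it in all 4 at each time. The check has limits, since 51 of 64 markers of myeloid, B, erythroid, mast cell and fibroblast types also exceeded that level in every reading. So did 12265 of all 15095 genes, so the count of T cell markers does not by itself identify the cells. None of those 64 passed the test (limma; 10 at an unadjusted p under 0.05, and 4 with the 8 arrays fitted singly), and their changes ran from −0.49 to 0.65. Loss of cells and less RNA per cell cannot be told apart in such bulk RNA.

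Targets and feedback genes of JAK-STAT signalling rose with the Ser585Gly chain in 9 of 21 measured genes and fell in 1. Cish, a SOCS family inhibitor that STAT5 induces and that damps cytokine receptors, had log2 ratios of 1.95 on array 1 and 2.24 on array 2. Its estimate was 2.06 ± 0.12 (SE), or 4.18-fold (adjusted p = 0.00333, limma). Pim2, a kinase of cell survival and growth, stood at 2.21 and 2.07 and rose by 2.17 ± 0.12 (adjusted p = 0.00333). Both genes were high on each array by about the same amount. Il2ra, an inducible chain of the receptor for interleukin-2, had 1.91 and 1.88 and rose by 1.92 ± 0.12, and all 4 of its probes passed as higher. Smaller rises were those of Pim1 (0.70), a kinase related to Pim2, of Socs2 (0.61), a feedback inhibitor, and of the D-type cyclins Ccnd2 (0.66) and Ccnd3 (0.76). Bcl6, a transcriptional repressor of the lymphoid lineage, fell by 1.39 ± 0.21 (adjusted p = 0.0211), with −1.59 and −1.70 on the 2 arrays and −0.62 by the route through the others. The feedback inhibitors Socs1 (0.16, adjusted p = 0.529) and Socs3 (0.15, adjusted p = 0.571) did not pass the test (limma). Nor did the signal carriers Jak2 (−0.43, adjusted p = 0.133) and Stat5a (−0.30, adjusted p = 0.222), or Csf2ra (0.12, adjusted p = 0.632), which encodes the mouse alpha chain. Pim3 and Stat5b were not analysed here. Rises in this list numbered 4 without replicate 2 of the mutation pair at 0 h or without replicate 2 of the wild-type time pair. The falls numbered 5 without replicate 1 of the mutation pair at 0 h and 0 without replicate 2 of the wild-type time pair, where Bcl6 lost its call.

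The promoters of Cish and of Lta, a cytokine gene among the 15 largest rises, are shown because each holds the STAT letters TTCNNNGAA at 2 places (capitals; the motif reads the same on both strands). In the RefSeq table of GRCm38.p6, 8.30% of 32851 windows of 300 bases hold the motif once or more and 0.457% hold it at least 2 times. In Cish the matches begin at base 1 and base 12 from the annotated start, at the end of the plus-strand stretch chr9:107296519-107296678. In Lta they lie 152 and 16 bases before the start, in the minus-strand stretch chr17:35205352-35205511. Both are written 5′ to 3′ in the direction of transcription.
Cish: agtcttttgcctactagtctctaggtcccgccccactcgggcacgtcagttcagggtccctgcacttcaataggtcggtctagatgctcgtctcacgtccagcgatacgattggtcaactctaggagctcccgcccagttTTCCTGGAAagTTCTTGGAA
Lta: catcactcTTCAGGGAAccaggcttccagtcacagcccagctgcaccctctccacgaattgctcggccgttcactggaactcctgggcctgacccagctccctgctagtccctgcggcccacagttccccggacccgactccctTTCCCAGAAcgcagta
A match is a description of the letters and was not tested as a binding site. Pim2 and Il2ra, which rose too, have no match in their windows. Of the 30 largest changes, 23 have a promoter window in the table. TTCNNNGAA is in 3 of these, those of Cish, Lta and Pdcd4, which fell. CACGTG is in 2, and TGATGNAA is in 1, that of Smpd1, which also fell. As under 80% have a window, these counts are not set against the share of all windows.

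**Figure D2:**
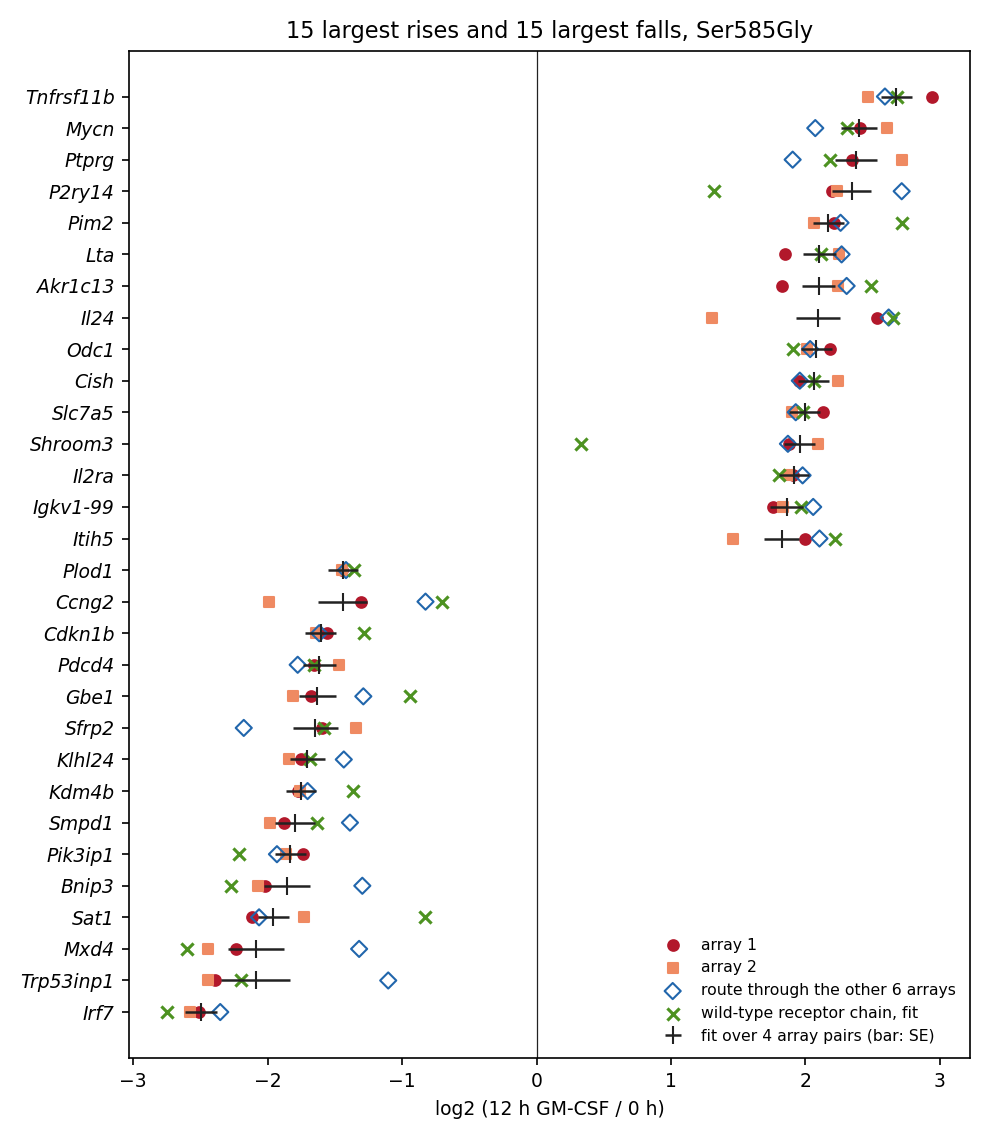
For the 15 largest rises and the 15 largest falls in Ser585Gly cells, the log2 ratio of 12 h to 0 h (x axis) is given on array 1 (circles), array 2 (squares) and the route through the other 6 arrays (diamonds), with the fitted estimate and its SE (black) and the fitted wild-type response (crosses). Il24 differed most between the arrays among the rises (2.53 and 1.31), and Shroom3 lay at 1.96 in Ser585Gly against 0.33 in wild type.

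Cytokines and members of the TNF superfamily were among the largest rises. Tnfrsf11b, which encodes osteoprotegerin, a soluble decoy receptor for RANK ligand, had 2.94 and 2.47 on the 2 arrays and rose by 2.67 ± 0.12, or 6.39-fold (adjusted p = 0.00333, limma), the largest rise among named genes. Tnfrsf11a, which encodes the receptor RANK itself, rose by 1.15. Lta, which encodes lymphotoxin alpha, had 1.85 and 2.25 and rose by 2.10 ± 0.12. The neighbouring cytokine gene Tnf rose by 1.09. Il24, an interleukin-10 family cytokine, had 2.53 on array 1 and 1.31 on array 2, so that its arrays differed by more than those of most named genes, and it rose by 2.09 ± 0.17 (adjusted p = 0.0053). Il10, an immunosuppressive cytokine, rose by 1.16, and Tgfb1, another suppressive cytokine, by 0.73. Among 22 T cell cytokine genes measured, 5 rose and 0 fell, but the list median was −0.01. Among 35 TNF ligands and receptors, 6 rose and 0 fell (median 0.07), the others being Tnfrsf18 (0.77), which encodes the co-stimulatory receptor GITR, and Tnfrsf13b (0.65), which encodes TACI. That count was 3 without replicate 2 of the mutation pair at 0 h or of the wild-type time pair. Of 33 cytokine receptor chains, 2 rose (6.06%, against 4.14% of all genes) and 1 fell (3.03%, against 2.82%). The rises were in Il2ra and Il12rb1 (0.79), a chain of the interleukin-12 receptor. Il10ra, the interleukin-10 receptor chain, fell by 1.02 ± 0.19 with −1.29 and −1.17 on the 2 arrays. Neither Il10ra nor Il12rb1 passed without replicate 2 of the mutation pair at 0 h or of the wild-type time pair. Of all genes, 4.14% rose and 2.82% fell, and the next 2 lists lay near those shares. Chemokines and their receptors gave 1 rise and 1 fall of 37 (2.70% each), in Ccr4 (0.70) and Cxcr4 (−0.54). NF-kB subunits and targets gave 1 rise of 23 (4.35%), in Bcl3 (0.59), an IkB family protein that acts in the nucleus. These last 3 calls were lost without replicate 2 of the mutation pair at 0 h, or of the wild-type time pair, and with the direct pair alone.

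Of 15 anti-apoptotic genes, the Bcl-2 family members Bcl2l1 and Bcl2 rose and none fell. Bcl2l1, which encodes Bcl-xL, had 1.09 and 0.93 and rose by 1.05 ± 0.12 (adjusted p = 0.0109, limma). Bcl2 had 0.65 and 1.02 and rose by 0.77 ± 0.12 (adjusted p = 0.023). Without replicate 2 of the mutation pair at 0 h, or of the wild-type time pair, Bcl2 did not pass and Bcl2l1 did. Mcl1, a short-lived relative, was at −0.25 (adjusted p = 0.322). On the opposing side, Bcl2l11, which encodes the death inducer Bim, was at −0.29 and did not pass (adjusted p = 0.206). Of 30 pro-apoptotic genes and caspases, 4 fell and 3 rose. The falls were in Bnip3 (−1.86), a BH3-like protein of the mitochondrial surface, Pdcd4 (−1.61), an inhibitor of translation, Apaf1 (−0.83), the scaffold of the apoptosome, and Bmf (−0.76), a BH3-only protein. The rises were in Casp8 (1.06), the initiator caspase of death receptors, and in Diablo (0.93) and Htra2 (0.79), mitochondrial proteins that bind inhibitors of apoptosis. Falls numbered 2 without replicate 2 of either of the pairs named above and 7 without replicate 1 of the mutation pair at 0 h. Rises numbered 1 without replicate 2 of the mutation pair at 0 h. Genes that promote death therefore moved in both directions.

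Of 11 measured genes of the Myc and Mxd network, 2 rose and 3 fell. Mycn, a Myc family transcription factor of growth, had 2.41 and 2.60 and rose by 2.40 ± 0.14, or 5.27-fold (adjusted p = 0.00333, limma). Myc itself had 0.87 and 0.61 and rose by 0.67 ± 0.12 (adjusted p = 0.0336); it lost the call when any of 5 single arrays was left out, array 1 among them. The 3 that fell encode Mxd proteins, which compete with Myc for its partner Max. Mxd4 had −2.23 and −2.45 on the direct arrays and −1.32 by the route, and fell by 2.08 ± 0.21 (adjusted p = 0.00841). Mxi1 fell by 0.995 ± 0.20 and Mxd1 by 0.92 ± 0.13. Rises numbered 1 without replicate 2 of the mutation pair at 0 h, and falls numbered 1 without it or without replicate 2 of the wild-type time pair.

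Polyamine genes, among them classical Myc targets, gave 4 rises and 1 fall of 13. Odc1, the enzyme that starts polyamine synthesis, had 2.18 and 2.01 and rose by 2.08 ± 0.11 (adjusted p = 0.00333, limma). Azin1, which protects ornithine decarboxylase from its inhibitor, rose by 0.87, with 1 of its 2 probes past the threshold. Srm, the spermidine synthase, rose by 0.66, and Eif5a, the protein that receives a spermidine-derived side chain, by 0.58. Sat1, the acetylase that starts polyamine breakdown, moved the other way. It had −2.12 and −1.73 and fell by 1.96 ± 0.12 (adjusted p = 0.00333). Rises numbered 1 without replicate 2 of the mutation pair at 0 h and 6 without replicate 1.

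The promoters of Mxd4 and Bnip3, both among the 15 largest falls, are shown because they hold CACGTG (capitals; the same on both strands), the E-box letters that dimers of Max bind. The motif is in 7.15% of the RefSeq windows. The matches begin 219 bases before the start of Mxd4, in the minus-strand stretch chr5:34187801-34187960, and 108 bases before that of Bnip3, in the minus-strand stretch chr7:138909532-138909691.
Mxd4: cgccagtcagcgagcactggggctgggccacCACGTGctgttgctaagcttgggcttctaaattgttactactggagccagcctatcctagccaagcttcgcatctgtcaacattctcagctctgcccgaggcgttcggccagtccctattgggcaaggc
Bnip3: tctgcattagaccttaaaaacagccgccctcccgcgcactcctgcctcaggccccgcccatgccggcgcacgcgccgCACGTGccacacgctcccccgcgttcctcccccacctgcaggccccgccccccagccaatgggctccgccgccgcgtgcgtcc
Neither Mycn nor Odc1 has the motif in its window.

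Ribosome biogenesis had the most rises among the lists, which were chosen with earlier results of these data known. Of 45 genes measured, 23 rose and 0 fell, with a list median of 0.62 against 0.0049 over all genes, and 38 of the 45 were above 0 on both arrays. Polr1b, a subunit of RNA polymerase I, had 1.48 on each array and rose by 1.58 ± 0.13 (adjusted p = 0.00562, limma). Nop56, a core protein of box C/D snoRNPs, had 1.31 and 1.41 and rose by 1.35 ± 0.11 (adjusted p = 0.00575). Nolc1, a nucleolar phosphoprotein, had 1.12 and 1.24 and rose by 1.23 ± 0.12. Its neighbours in the list included Nop58 (1.21), the partner of Nop56, Pno1 (1.18) and Utp4 (1.18), which act in small subunit maturation, and Ncl (0.86), which encodes nucleolin. The count of rises was 9 without replicate 2 of the mutation pair at 0 h and 29 without replicate 1, and 1 gene fell without array 1 of the direct pair. Of 56 genes for the proteins of the cytosolic ribosome itself, 0 rose and 0 fell (limma; 4 at an unadjusted p under 0.05, and 0 with the 8 arrays fitted singly), with changes between −0.40 and 0.44 and a median of −0.05, and 29 of them were below 0 on both arrays against 4 above. Mitochondrial ribosomal proteins gave 4 rises of 57 (7.02%, against 4.14% of all genes), led by Mrpl46 (0.67) and Mrps16 (0.64), and their median was 0.14. Their rises numbered 8 without replicate 1 of the mutation pair at 0 h or without array 2, and 0 without replicate 2 of either mutation pair or without either array of the wild-type time pair. Oxidative phosphorylation subunits gave 0 calls of 56 (limma; 8 at an unadjusted p under 0.05, and 2 with the arrays fitted singly), with a median of 0.01.

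Protein synthesis and folding factors followed with smaller changes. Of 23 initiation factors and regulators, 4 rose, namely Eif6 (0.91), which keeps ribosomal subunits apart, Eif2s2 (0.82), a subunit of the factor that brings the initiator tRNA, Eif3c (0.74), and Eif4ebp1 (0.62), an inhibitor of cap-dependent initiation. None of the 4 passed without replicate 2 of the mutation pair at 0 h or of the wild-type time pair. Of 36 chaperones, 8 rose and 0 fell, with Hspd1 (1.12 ± 0.12), the mitochondrial chaperonin, and the cytosolic chaperonin subunits Cct6a (0.98), Cct7 (0.81) and Cct8 (0.69) among them. That count was 2 without either of the same arrays and 13 without replicate 1 of the mutation pair at 0 h. Of 36 proteasome subunits and regulators, 2 rose, Psme3 (1.02) and Psmd3 (0.53), and 9 genes rose without replicate 1 of the mutation pair at 0 h, but 0 without replicate 2 of that pair or of the wild-type time pair.

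Of 15 amino acid transporters, 5 rose and 0 fell. Slc7a5, the light chain of the transporter of large neutral amino acids, had 2.13 and 1.90 and rose by 1.99 ± 0.12 (adjusted p = 0.00333, limma). Its heavy chain Slc3a2 had 1.51 and 1.23 and rose by 1.32 ± 0.12. Slc1a5, a glutamine transporter, rose by 0.99, Slc7a1, an arginine transporter, by 0.88, and Slc38a1, another glutamine transporter, by 0.63. Of these transporters, 2 rose without replicate 2 of the mutation pair at 0 h. Of 13 serine and one-carbon enzymes, 7 rose and 0 fell, and the list median was 0.60. The 3 enzymes that make serine from a glycolytic intermediate were all higher. Phgdh had 1.52 and 0.84 and rose by 1.21 ± 0.12, Psat1 rose by 0.97, and Psph had 1.41 and 1.17 and rose by 1.34 ± 0.12. The serine-to-glycine enzymes Shmt1 (1.02) and Shmt2 (0.74) and the folate enzymes Mthfd1 (0.60) and Mthfd2 (0.89) rose as well, although Shmt1 stood at 1.55 on array 1 and 0.53 on array 2. Without replicate 2 of the mutation pair at 0 h, 3 genes of the list rose.

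The ATF4 programme, which cells use when amino acids are short or the endoplasmic reticulum is stressed, gave 4 rises and 2 falls of 19. Atf4, the transcription factor itself, had 1.23 and 1.08 and rose by 1.10 ± 0.12 (adjusted p = 0.00951, limma). Its known targets Chac1 (1.27), a glutathione-degrading enzyme, Trib3 (0.97), a pseudokinase, and Asns (0.86), asparagine synthetase, rose, with 1.39 and 0.53 on the 2 arrays for Trib3. Ddit4, an inhibitor of mTORC1, fell by 0.97 ± 0.11, and Eif2ak3, which encodes the stress kinase PERK, fell by 0.72. Of 19 aminoacyl-tRNA synthetases and their partners, 5 rose and 0 fell, with Eef1e1 (1.07), a scaffold of the synthetase complex, and the leucine and alanine enzymes Lars (1.04) and Aars (0.61) among them. Without replicate 2 of the mutation pair at 0 h, 2 genes of the ATF4 list and 1 synthetase gene rose, and Aars lost the call when any of 6 single arrays was left out.

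The promoters of Chac1 and Aars are shown because each holds TGATGNAA on either strand (capitals), the letters bound by dimers of ATF4 and C/EBP proteins. It is in 3.97% of the RefSeq windows. Matches in other genes of the ATF4 and synthetase lists were not counted. Chac1 has 1 match, 193 bases before the start in the plus-strand stretch chr2:119350992-119351151. Aars has 2 matches, the first 112 bases before the start and the other at base 10 after it, in the plus-strand stretch chr8:111033702-111033861.
Chac1: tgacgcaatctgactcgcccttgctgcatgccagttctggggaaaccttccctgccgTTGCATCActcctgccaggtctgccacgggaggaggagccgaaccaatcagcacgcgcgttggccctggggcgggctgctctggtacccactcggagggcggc
Aars: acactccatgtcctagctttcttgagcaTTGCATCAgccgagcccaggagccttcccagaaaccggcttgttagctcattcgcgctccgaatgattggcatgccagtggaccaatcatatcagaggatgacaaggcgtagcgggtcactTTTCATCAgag
None of the capitals shown for these 6 promoters overlaps a match of another of the 3 motifs.

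Of 48 S phase genes, 16 rose and 0 fell, with a median of 0.34. Orc2, a subunit of the origin recognition complex, had 1.55 and 1.40 and rose by 1.39 ± 0.13 (adjusted p = 0.00693, limma). Cdc6, which loads the replicative helicase, had 1.39 and 1.33 and rose by 1.38 ± 0.11, and the helicase subunit Mcm4 had 1.06 and 1.44 and rose by 1.30 ± 0.12. Another 4 helicase subunits passed at 0.74 to 0.99, Mcm6 being the lowest and Mcm5 the highest. Ccne1 (0.83) and Ccne2 (0.63), the cyclins of S phase entry, rose too. The count was 4 without replicate 2 of the mutation pair at 0 h. Of 44 genes of G2 and mitosis, 1 rose and 3 fell, and the median was −0.08. The rise was in Cdc25a (0.82), a phosphatase that also acts at S phase entry, and the falls were in Cenpa (−0.66), the centromeric histone, Ncapd2 (−0.65), a condensin subunit, and Ccnf (−0.55), cyclin F. Falls numbered 11 without replicate 1 of the mutation pair at 0 h and 0 without replicate 2. Purine and pyrimidine synthesis gave 8 rises and 0 falls of 21. Gart, a purine enzyme with several activities, had 1.24 and 2.04 and rose by 1.65 ± 0.11 (adjusted p = 0.00427). Ppat, the committed step of purine synthesis, rose by 1.06, with 1 of its 2 probes past the threshold. Cad, which starts pyrimidine synthesis, rose by 0.84. Without replicate 2 of the mutation pair at 0 h or of the wild-type time pair 2 genes rose.

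Of 21 regulators of G1, 4 rose and 4 fell. Cdkn1b, which encodes the CDK inhibitor p27, had −1.56 and −1.64 and fell by 1.60 ± 0.11 (adjusted p = 0.00436, limma). Cdkn2d, an inhibitor of Cdk4 and Cdk6, fell by 0.76, and the quiescence pocket protein Rbl2 by 0.69. Ccng2, a cyclin of arrested cells, had −1.31 and −1.99 and fell by 1.44 ± 0.18. The positive regulators Cdk6 (0.93), Ccnd2, Ccnd3 and E2f3 (0.72) rose. None of the 4 rises passed without replicate 2 of the mutation pair at 0 h or of the wild-type time pair, while 1 gene fell without the latter. The iron importer Tfrc, the transferrin receptor of dividing cells, was the 1 call among 17 iron handling genes (5.88% higher, against 4.14% of all genes). It rose by 0.81 on the brighter of 2 probes, and both probes passed. Without replicate 2 of the mutation pair at 0 h or of the wild-type time pair the brighter one did not pass.

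FoxO targets and quiescence genes had the most falls among the lists, which were chosen with earlier results of these data known. FoxO factors are held out of the nucleus by Akt, downstream of PI3K. Of 41 measured genes, 16 fell and 1 rose, the median was −0.42, and 34 were below 0 on both arrays. Trp53inp1, a stress protein of autophagy and p53 signalling, had −2.39 and −2.44 on the direct arrays and −1.10 by the route, and fell by 2.09 ± 0.25 (adjusted p = 0.0131, limma). Pik3ip1, an inhibitor of PI3K, had −1.73 and −1.86 and fell by 1.83 ± 0.12 (adjusted p = 0.00356). Pdcd4 had −1.66 and −1.47 and fell by 1.61 ± 0.12. Others were Btg2 (−1.29), an antiproliferative gene, Klf6 (−1.20), a zinc finger factor, Txnip (−1.004), which limits glucose uptake, and Sesn3 (−0.88), a brake on mTORC1. The gene that rose was Gabarapl1 (0.65), an autophagosome protein. Falls numbered 9 without replicate 2 of the mutation pair at 0 h or of the wild-type time pair. Within PI3K signalling, 2 of 26 rose, Pik3cg (1.28), a catalytic subunit of leukocytes, and the adaptor Gab1 (0.62), and 2 fell, Pik3ip1 and the regulatory subunit Pik3r1 (−0.54). Pik3cg had 1.58 and 1.30 on the direct arrays and 0.81 by the route. Neither of these rises passed without replicate 1 of the wild-type time pair. Of 23 p53 targets, 5 fell and 1 rose; all 5 that fell, Trp53inp1, Btg2, Ddit4, Apaf1 and Gadd45a (−0.70), are also in other lists above or in the FoxO list. The rise, in the nuclease Aen, rested on the route (2.53) more than on the direct arrays (1.22 and 0.92), at 1.43 ± 0.28. Within that route, the 2 arrays of the mutation pair at 12 h differed widely, at −0.03 and 2.56. Aen did not pass with the direct pair alone (limma, adjusted p = 0.28). Falls among p53 targets numbered 3 without replicate 2 of the mutation pair at 0 h or of the wild-type time pair and 8 without replicate 1 of the former.

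Glycolysis and hypoxia genes gave 0 rises and 10 falls of 34, with a median of −0.31. Bnip3, a target of hypoxia-inducible factors, had −2.02 and −2.07 on the direct arrays and −1.30 by the route, and fell by 1.86 ± 0.17 (adjusted p = 0.00692, limma). The glycolytic enzymes Tpi1 (−0.97), Pgam1 (−0.85), Pgk1 (−0.83) and Ldha (−0.65) fell, and the arrays stood at −1.31 and −0.52 for Tpi1. Egln1 (−0.86), the oxygen sensor of the pathway, and Ero1a (−0.64), an oxidase of the endoplasmic reticulum, fell as well. With replicate 2 of the mutation pair at 0 h left out, 1 gene of the list fell. Lysosome and autophagy genes gave 7 falls and 1 rise of 49 with a median of −0.15. They included Gla (−1.13) and Hexa (−0.84), enzymes of glycolipid breakdown, Atp6v0d1 (−0.96), a proton pump subunit, Map1lc3b (−0.80), the autophagosome protein LC3B, and Lamp2 (−0.71), a lysosomal membrane protein. Without replicate 2 of the mutation pair at 0 h or of the wild-type time pair, 1 gene fell. Cholesterol and fatty acid synthesis gave 1 fall of 29, in Acss2 (−0.83), which makes acetyl-CoA from acetate; it did not pass without either of those arrays, and 6 genes of the list rose without replicate 1 of the mutation pair at 0 h.

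**Figure D3:**
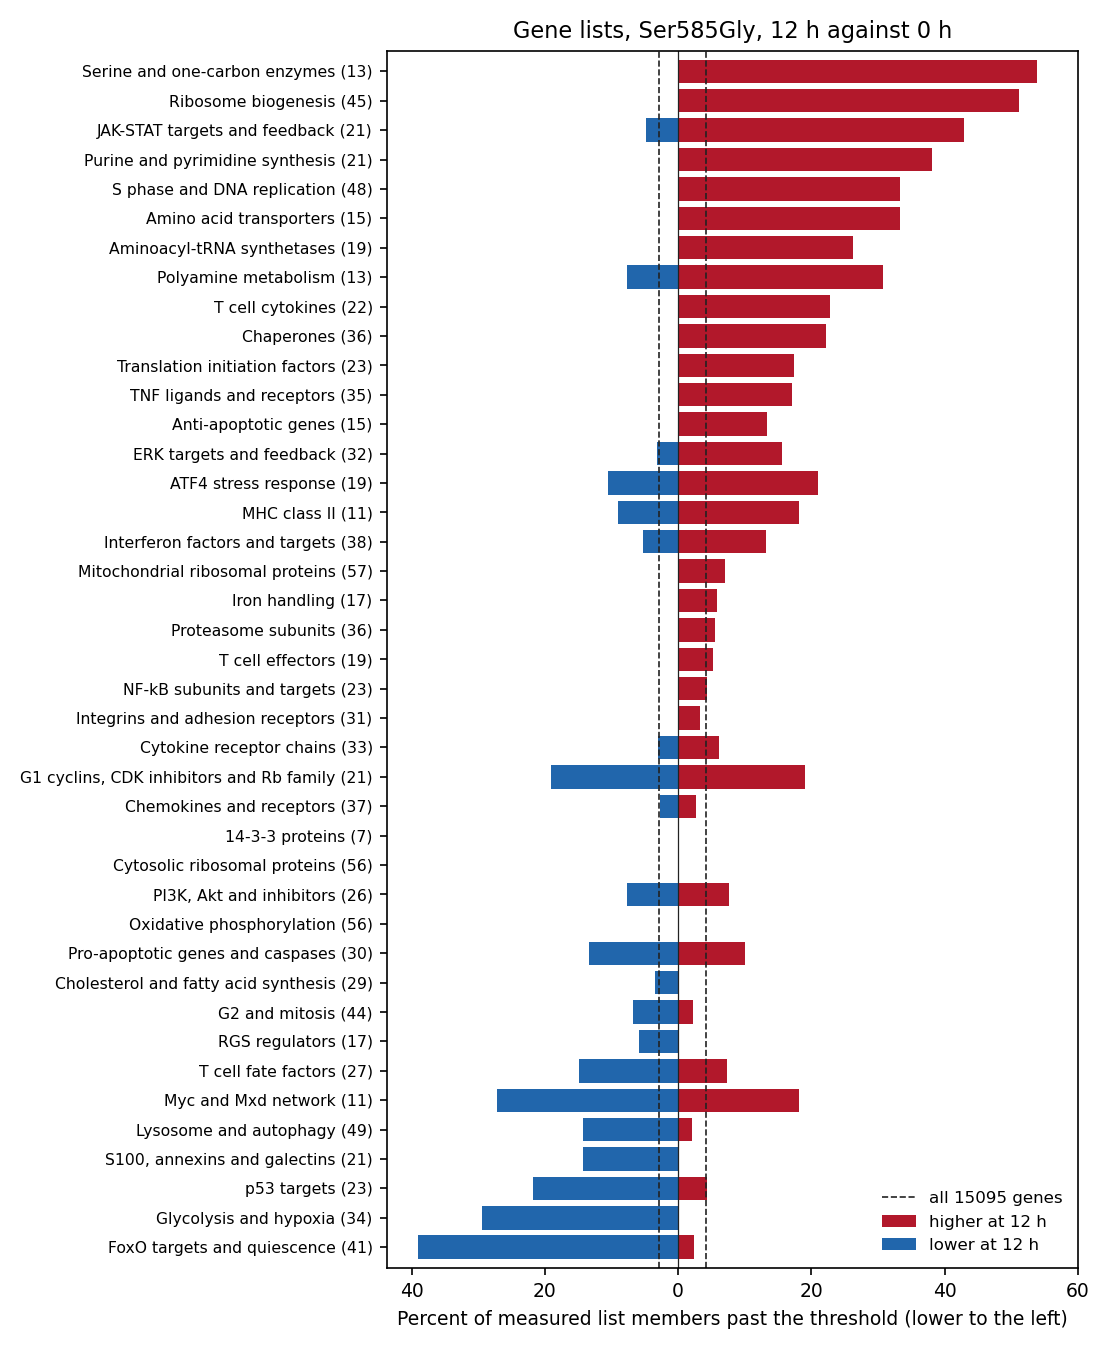
Bars give the percent of measured members (numbers in brackets) that rose (red, to the right) or fell (blue, to the left) in Ser585Gly cells for the gene lists other than markers of cell types; dashed lines mark the share of all 15095 genes, 4.14% higher and 2.82% lower. Serine and one-carbon enzymes and ribosome biogenesis lie farthest to the right, and FoxO targets farthest to the left.

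**Figure D4:**
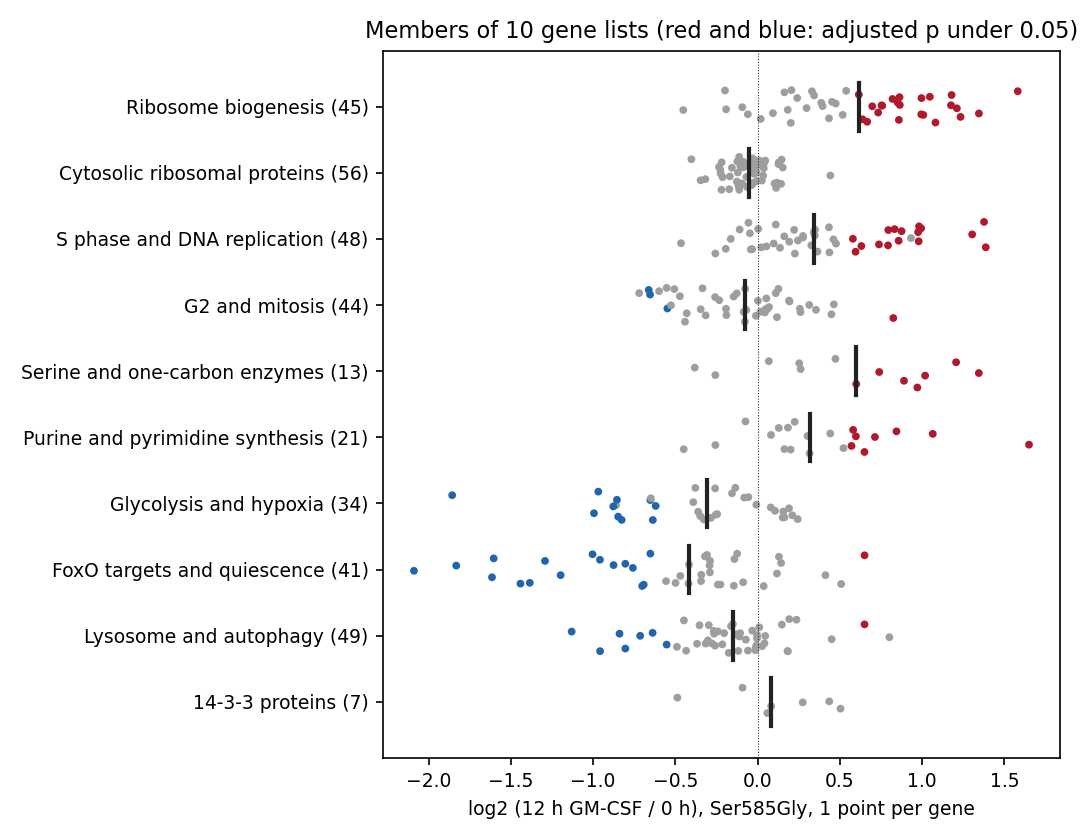
Each point is a gene of 10 lists, placed by its log2 change in Ser585Gly cells (x axis), in colour where it passed the test, and black bars mark list medians. Ribosome biogenesis (median 0.62) and cytosolic ribosomal proteins (−0.05) have different medians, as do S phase genes (0.34) and genes of G2 and mitosis (−0.08).

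ERK target and feedback genes gave 5 rises and 1 fall of 32. Etv4, an ETS transcription factor induced by ERK, had 1.71 and 1.26 and rose by 1.46 ± 0.12 (adjusted p = 0.0053, limma). Fos, an immediate early gene, had 1.11 and 1.24 on the direct arrays and rose by 1.01 ± 0.16. It did not pass without replicate 1 of the wild-type time pair or replicate 2 of the mutation pair at 0 h. The Fos probe was dim, at a brightness percentile of 21.2, and was above empty wells in 3 of 4 readings at 0 h. Phlda1 (0.91), Spry4 (0.71), a feedback inhibitor, and Dusp6 (0.62), an ERK phosphatase, rose as well. Nr4a2, an orphan nuclear receptor, fell by 1.01 ± 0.11. Without replicate 2 of the mutation pair at 0 h, 1 gene of the list rose. Egr1, another immediate early gene, was at 0.04 ± 0.19 (adjusted p = 0.931), with −0.11 and −0.23 on the direct arrays and 0.68 by the route, so that its sign differed between them.

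None of the 7 genes of the 14-3-3 proteins, the adaptors that bind the phosphorylated serine, passed the test (limma; 2 at an unadjusted p under 0.05, and 0 with the arrays fitted singly). Ywhag (14-3-3 gamma) came nearest, with 0.33 and 0.62 on the arrays and 0.50 ± 0.12 in the fit (adjusted p = 0.0605). Ywhae (14-3-3 epsilon) was at 0.44 ± 0.17 (adjusted p = 0.195), Ywhaq at 0.27, Ywhaz at 0.08, Ywhah at 0.06, Ywhab at −0.09 and Sfn (14-3-3 sigma) at −0.49 ± 0.21 (adjusted p = 0.246). Without replicate 1 of the mutation pair at 0 h, or with print-tip loess, 1 of the 7 rose and 1 fell. In the deposited table, 2 rose and 1 fell. Median centring gave 2 rises, and 1 gene rose with the dye-swap pair as a random block, with a trended prior or without background correction.

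Of 24 T cell identity markers, 0 rose and 2 fell. Cd3e, with −0.90 and −0.97 on the arrays, fell by 0.90 ± 0.12 (adjusted p = 0.0152, limma) and Cd3g, with −0.74 and −0.67, fell by 0.72 ± 0.11 (adjusted p = 0.0237), a call that was lost without replicate 2 of the mutation pair at 0 h or of the wild-type time pair. Both encode chains of the CD3 complex of the T cell receptor. Among 27 fate factors, 2 rose and 4 fell. Irf4, a factor of activated lymphocytes, rose by 1.05 ± 0.12. Ikzf3 (−0.99, with 1 of its 2 probes past the threshold), Ets1 (−0.68), Ikzf1 (−0.63) and Bcl6 fell. The remaining call, Bach2, a repressor, was not above empty wells and is given no change. Falls in this list numbered 1 without replicate 2 of the wild-type time pair. Of 19 effector genes of killing, 1 rose, Nkg7 (0.83), a granule membrane protein, and it did not pass without that array or replicate 2 of the mutation pair at 0 h.

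Interferon factors and targets moved in both directions, with 5 rises and 2 falls of 38. Irf7, the regulator that amplifies type I interferon, was the largest fall among all named genes. It had −2.51 and −2.57 on the direct arrays and −2.35 by the route, and fell by 2.50 ± 0.12 (adjusted p = 0.00333, limma). Dhx58, an RNA sensor, fell by 0.75. In contrast Irf8, a factor of myeloid and lymphoid cells, had 1.03 and 1.08 and rose by 1.04 ± 0.11 (adjusted p = 0.0104). The interferon-induced GTPases Irgm2 (0.95) and Igtp (0.73) and the antiviral gene Oasl2 (0.78) rose too. Rises numbered 3 without either array of the wild-type time pair or without replicate 2 of the mutation pair at 0 h. Of 11 MHC class II genes, H2-DMb1 (0.78) and H2-DMb2 (0.56), 2 similar copies whose probes may share signal, rose and H2-Oa (−0.62) fell. None of the 3 passed without replicate 2 of either mutation pair or without either array of the wild-type time pair. Anxa2, a calcium-dependent membrane binder, had −1.42 and −1.41 and fell by 1.38 ± 0.12. S100a10 (−0.63), its binding partner, and S100a11 (−0.63) fell as well, and these were the 3 calls among 21 S100, annexin and galectin genes. The list held 1 fall without replicate 2 of the mutation pair at 0 h or without either array of the wild-type time pair. Cd82, a tetraspanin, was the 1 rise among 31 integrins and adhesion receptors, at 1.57 ± 0.15, and it did not pass without replicate 1 of the wild-type time pair. Rgs2, a regulator of G-protein signalling, was the 1 fall among 17, at −0.80, with −0.45 and −1.27 on the arrays, and it did not pass without array 2, without replicate 2 of the mutation pair at 0 h or without replicate 2 of the wild-type time pair.

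Several of the largest changes lay outside the groups above. Ptprg, a receptor tyrosine phosphatase, had 2.35 and 2.72 and rose by 2.38 ± 0.16 (adjusted p = 0.00378, limma). P2ry14, the receptor for UDP-glucose, had 2.20 and 2.24 and rose by 2.34 ± 0.14 (adjusted p = 0.0034). Akr1c13, an aldo-keto reductase, rose by 2.10, but it has close relatives that may share its probe's signal. Shroom3, an actin-binding protein of epithelial shape, rose by 1.96 ± 0.12 and Itih5, an extracellular matrix protein, by 1.82 ± 0.13. Igkv1-99, an immunoglobulin kappa segment with many similar copies, rose by 1.86. Among the falls, Smpd1, the lysosomal acid sphingomyelinase, had −1.88 and −1.98 and fell by 1.80 ± 0.15. Kdm4b, a histone demethylase, fell by 1.75 ± 0.11, and Klhl24, a ubiquitin ligase adaptor, by 1.71 ± 0.13, with all 3 of its probes past the threshold. Gbe1, the glycogen branching enzyme, fell by 1.63, and Plod1, a collagen lysyl hydroxylase, by 1.44. Sfrp2, a secreted Wnt antagonist, had −1.59 and −1.35 on the direct arrays and −2.18 by the route, and fell by 1.65 ± 0.17.

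The change with the Ser585Gly chain was then set against that with the wild-type chain, each chain being 1 population of cells. Of the 1355 probes that passed, 1311 (96.8%) had the sign of the Ser585Gly estimate on both wild-type time arrays, against 53.4% of all probes. Those arrays enter the estimate through the route, and probes that pass have large changes, which in part sets that gap. The difference of the responses (Ser585Gly less wild type) passed for 0 of 21776 probes (limma), 1511 (6.94%) had an unadjusted p under 0.05, and the smallest adjusted p was 0.135. On the direct arrays of each chain, Cish had 1.95 and 2.24 with Ser585Gly and 1.9994 and 2.05 with wild type. Its fitted estimates were 2.06 and 2.06, and those of Slc7a5 were 1.99 and 1.98; such estimates share 1 fit over the same arrays. A difference that did not pass is no evidence of equality. In this fit even a difference of 1.63 ± 0.13, in Shroom3, did not pass (adjusted p = 0.135), so no difference of that size was called. When the 8 arrays were fitted singly, treating each dye swap as separate, 12 probes passed for the difference (0.0551%), of which 9 had 1 symbol. Without replicate 1 of the mutation pair at 0 h, 311 probes passed, and with any of the 7 other arrays left out 0 passed.

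The clearest of the 9 named genes were high or low on both arrays of 1 chain. Shroom3 stood at 1.88 and 2.10 with Ser585Gly and at 0.47 and 0.13 with wild type, a difference of 1.63 ± 0.13. Ctnnd2, which encodes delta-catenin of cell junctions, had 1.69 and 1.52 against −0.09 and 0.14, a difference of 1.53 ± 0.13. Sat1 had −2.12 and −1.73 against −0.76 and −0.97, a difference of −1.13 ± 0.13. Xpnpep2, an aminopeptidase, had −1.18 and −1.08 against 0.05 and 0.04. Rgs18, a regulator of G-protein signalling, had −0.37 and 0.62 with Ser585Gly against 1.94 and 1.96 with wild type. The Rgs18 probe was dim, at a brightness percentile of 20.9, and its Ser585Gly arrays differed in sign. Trim29 had 0.62 and 0.46 against 1.64 and 1.53, Gm8979 had 1.40 and 0.95 against 0.40 and 0.05, Tln2 had 0.10 and 0.91 against −1.07 and −0.62, and Ighm had −0.68 and 0.51 against −1.55 and −0.94. These 9 were singled out by that alternative fit after its values were seen, and in the fit of averaged pairs none passed (adjusted p of 0.135 for Shroom3 and Ctnnd2 and 0.30 for Sat1). Other named genes with low unadjusted p for the difference were Trib3 (0.97 with Ser585Gly against 1.996), Irf8 (1.04 against 0.23), P2ry14 (2.34 against 1.32), Gart (1.65 against 0.75) and Il10ra (−1.02 against −2.26). By list, S phase genes had a median of 0.34 with Ser585Gly and 0.20 with wild type, and ribosome biogenesis 0.62 and 0.43. The wild-type median was higher for serine and one-carbon enzymes (0.60 and 0.74), amino acid transporters (0.27 and 0.38) and aminoacyl-tRNA synthetases (0.30 and 0.32). FoxO targets had −0.42 and −0.41. These are a few of the 47 lists, and no difference between lists was tested.

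**Figure D5:**
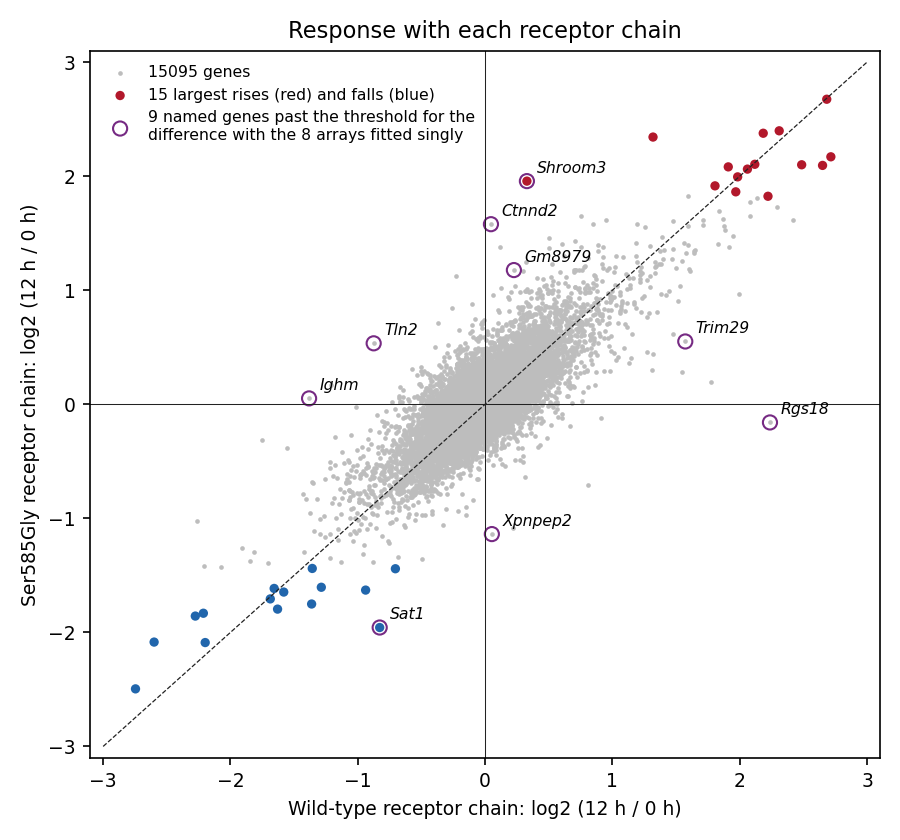
Each grey point is 1 of 15095 genes, with its fitted log2 ratio of 12 h to 0 h for the wild-type chain (x axis) and the Ser585Gly chain (y axis); the dashed line marks equal responses, and both estimates come from 1 fit over the same arrays. The 30 largest changes are in red and blue, and Shroom3, at 1.96 against 0.33, lies far above it.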

How the data were processed

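Each two-colour spotted oligonucleotide array gave foreground and background intensity per spot, per the file headers; the sources used here do not say how these were made. The authors deposited a table of log2 ratios of Cy5 over Cy3, and the submitters' processing notes name limma, without version or steps. RNA was extracted with Trizol and labelled with a first-strand kit, per the labels. Across arrays, median Cy5 foreground spanned 631 to 946 and median Cy3 foreground 795 to 1105; precision is limited by how few arrays there are.

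The scanner values carry no names. Probes were placed by setting the deposited ratios against the scanner values (correlation 0.948 to 0.996 per array), and names follow a print order with 24 pins recovered from the data, in place of the deposited order of 48. In the recovered order 244 empty wells had a median brightness percentile of 1.35, against 47.5 in the deposited order, and ribosomal protein probes had 99.0 against 46.7. Probes of 1 gene (1050 genes) correlated in their time ratio at 0.405, against −0.08. All gene names rest on that order. Symbols came from the supplied annotation, updated to GRCm38.p6 RefSeq by gene identifier for 15970 probes and by accession for 6, while 666 kept theirs; 137 probes had several symbols and 4997 none.

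Background was corrected by normexp (offset 50) and ratios normalised by loess (span 0.3, no weight on controls). Turned dye swaps were averaged, and limma 3.58.1 in R 4.3.3 fitted mutation, time and interaction to the 4 pairs, leaving 1 residual degree of freedom beside 5.27 from the prior (two-sided tests). The script was tested on simulated data. Alternatives were the 8 arrays singly, the direct pair alone, the pair as a random block, a trended prior, no background correction, print-tip loess, median centring, scaling, the deposited table, a filter on dim probes and each array left out. Members and lists (47 lists, 1259 of 1401 symbols measured) were chosen with earlier results of these data known. Named were the 15 largest rises and falls (same sign on both arrays and the route, brightness percentile of at least 25), up to 3 rises and 3 falls per list, and a set of receptor and signalling genes; other list members named were chosen after their values were seen. A gene was called above empty wells where it exceeded their 95th percentile. Some genes are not reported here.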

Additional observations from a re-analysis of the deposited data

Results flagged for a closer look

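For Egr1, both Ser585Gly arrays lay below 0 (−0.11 and −0.23) and both wild-type arrays lay above it (0.00095 and 0.13). The fitted responses gave a difference of 0.19 that did not pass (limma, adjusted over all probes). For Tln2, which encodes the cytoskeletal protein talin 2, the Ser585Gly arrays were at 0.10 and 0.91 and the wild-type arrays at −1.07 and −0.62, with a fitted difference of 1.41 ± 0.13. For Xpnpep2, the Ser585Gly arrays were at −1.18 and −1.08 and the wild-type arrays at 0.05 and 0.04, with a fitted difference of −1.19 ± 0.13. These 3 genes drew attention because every array of one receptor chain had the opposite sign to every array of the other. That rule used the sign alone. The wild-type arrays of Xpnpep2, 1 wild-type array of Egr1 and 1 Ser585Gly array of Tln2 lay close to 0. The difference was tested for each in the fit of averaged pairs and did not reach an adjusted p under 0.05 there.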

How the results depend on the processing

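The count of 1355 probes was 2277 with the 8 arrays fitted singly, 4306 with the pair as a random block, 2777 with print-tip loess, 2460 with median centring and 3113 with the deposited table, and ran from 250 to 3135 with single arrays left out. The share that rose, 58.6%, was 54.9% with arrays fitted singly, 52.0% with the random block and 55.6% with print-tip loess, and ran from 54.5% to 70.5% with single arrays left out. Probes that passed for the difference between the chains numbered 0 in the reported fit, 12 with arrays fitted singly, 35 with the random block, 1 with a trended prior, 44 with median centring and 2 with the deposited table, and 0 to 311 with single arrays left out. With an array left out, its pair keeps 1 dye orientation, and that refit has no dye term. The cause of these shifts was not tested. Among named genes, Egr1 turned to −0.17 with the direct pair alone and to −0.028 with scaling, and ran from −0.15 to 0.20 with single arrays left out, turning sign without replicate 1 of the mutation pair at 0 h (−0.15), replicate 2 of that at 12 h (−0.0066) or replicate 2 of the wild-type time pair (−0.015). Ywhab turned to 0.022 without background correction, and Ywhah to −0.070 without array 1, within a range of −0.070 to 0.14 over single arrays left out. None of these 3 passed in any of those settings (limma). The settings left the median of all probes between −0.0015 and 0.015. With a single pair of arrays per comparison, changes under about 0.53 did not pass. No paired analysis was possible because averaging each dye-swap pair leaves no replicate number to block on in the reported fit; the number, which is the dye orientation, entered the fit of 8 single arrays as its dye term.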
